A study of Mus musculus with 27 samples.

Results

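The genes described here are 45 mouse genes of DNA replication and the S phase, taken by name from the 2 deposited expression tables: the origin licensing factors, the activators of the replicative helicase, the sliding clamp and its loader, the replicative polymerases, the enzymes that make deoxynucleotides, the factors that bind single strands and mature the new strand, the G1/S drivers, and 4 factors that act as chromatin is copied. They were picked by name for their known roles, with earlier results of these data known. All 45 were among the 23295 genes of the table of parental cells and the 24247 genes of the table of shRNA cells, and all 45 passed the filter on low values, with 11309 and 11450 genes passing it in the tables. They were read in NMuMG, a mouse line that came from normal mammary epithelium and that undergoes an epithelial-to-mesenchymal transition (EMT) when TGF-β is added. RNA-seq covered parental cells before TGF-β and after 8 h and 24 h in it (2 libraries per time point, 6 in all), and on cells infected with lentivirus that carried an irrelevant shRNA (control) or an shRNA to lamin B1 (knockdown, KD), at the same times (2 libraries per group, 12 in all). According to the labels, TGF-β was used at 1 to 5 ng/ml. Lamin B1 ChIP-seq and ATAC-seq of parental cells gave 1 library per time point each, so their peaks have no replicate check.

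Before a cell copies its DNA, the origin recognition complex, CDC6 and CDT1 load rings of MCM2 to MCM7 onto origins, and these rings become the helicase once CDC45 and GINS join them in S phase. Polymerase alpha with primase starts each strand, the clamp PCNA is set in place by the RFC loader and tethers the polymerases, and FEN1 and LIG1 join the fragments of the lagging strand. Many of these genes are known to be transcribed by E2F factors as cells pass from G1 into S phase, after cyclin E with its kinase has helped to release E2F from the RB proteins, and TGF-β is known to hold epithelial cells in G1.

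The authors deposited FPKM values, which are reads scaled by gene length and by library, so the levels of different genes can be set side by side, while the number of reads behind them is unknown. The 10 most abundant genes of a library held between 11.4 and 40.4% of its summed FPKM. Lmnb1, the gene of lamin B1, was at 29.2 and 36.5 FPKM untreated, 32.8 and 32.1 at 8 h, and 18.4 and 17.9 at 24 h in control cells and at 9.01 and 9.27 FPKM untreated, 7.79 and 8.14 at 8 h, and 4.37 and 7.52 at 24 h in KD cells, so that every KD library lay below every control library of its time. In parental cells Lmnb1 stood at 36.9 and 36.3 FPKM untreated, 34.1 and 34.4 at 8 h, and 19.5 and 17.6 at 24 h, and it fell by 0.95 ± 0.053 (SE, log2 scale) between 0 and 24 h. Of 10 epithelial markers 9 reached 1 FPKM in each table. Among them Krt8 and Krt18, keratins of simple epithelia, reached at least 2024 and 1719.7 FPKM in every library, while Epcam stayed at or below 3.15 FPKM. Of 12 markers of blood, endothelial, muscle and other cells 11 were in the tables. Of these, 2 (Des and Hbb-b1) reached 1 FPKM in the parental table, where the summed level of the list was 6.31 to 12.1 FPKM, and 0 did so in the shRNA table, where the sum was 0.0766 to 0.749 FPKM.

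Differences are given on the log2(FPKM + 1) scale, which understates the change of the lowest genes, with the standard error (SE) of a limma fit across all tested genes of a table and p-values adjusted by Benjamini-Hochberg over those genes. A gene was called changed at an adjusted p under 0.05. In parental cells at 24 h, 2 of the 8 tested epithelial markers were called higher and 4 lower. Of 11 tested genes of the TGF-β response and mesenchymal cells, 10 were called higher and 1 lower. Of all tested genes 33.4% were called higher and 37.1% lower. In bulk RNA from many cells, fewer cells in S phase and less RNA of these genes per cell cannot be told apart. Each kind of cell had untreated libraries at 0 h only. Effects of TGF-β and of any difference in time in culture therefore cannot be told apart.

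In parental cells every one of the 45 genes was lower after TGF-β than before it. All 45 were called lower at 8 h against 0 h, where 32.1% of all tested genes were called lower, and all 45 were again called lower at 24 h, where the background was 37.1%. For each of the 45 genes, both libraries of either treated group lay below both untreated libraries, which held for 45.4% of all tested genes at 8 h and for 44.9% at 24 h. The median difference over the genes was -0.77 at 8 h (from -1.33 for Cdc6 to -0.45 for Rrm1) and -1.09 at 24 h (from -1.96 for Tk1 to -0.56 for Ccne1), beside medians of -0.05 and -0.02 over all tested genes. Between 8 and 24 h 36 of the 45 fell further, 1 (Ccne1) rose and 8 were not called, with 24.0% of all tested genes called lower and 27.7% called higher. The median FPKM of the 45 genes was 39.8 and 37.2 in the untreated libraries, 22.0 and 22.1 at 8 h, and 16.2 and 16.1 at 24 h.

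**Figure D1:**
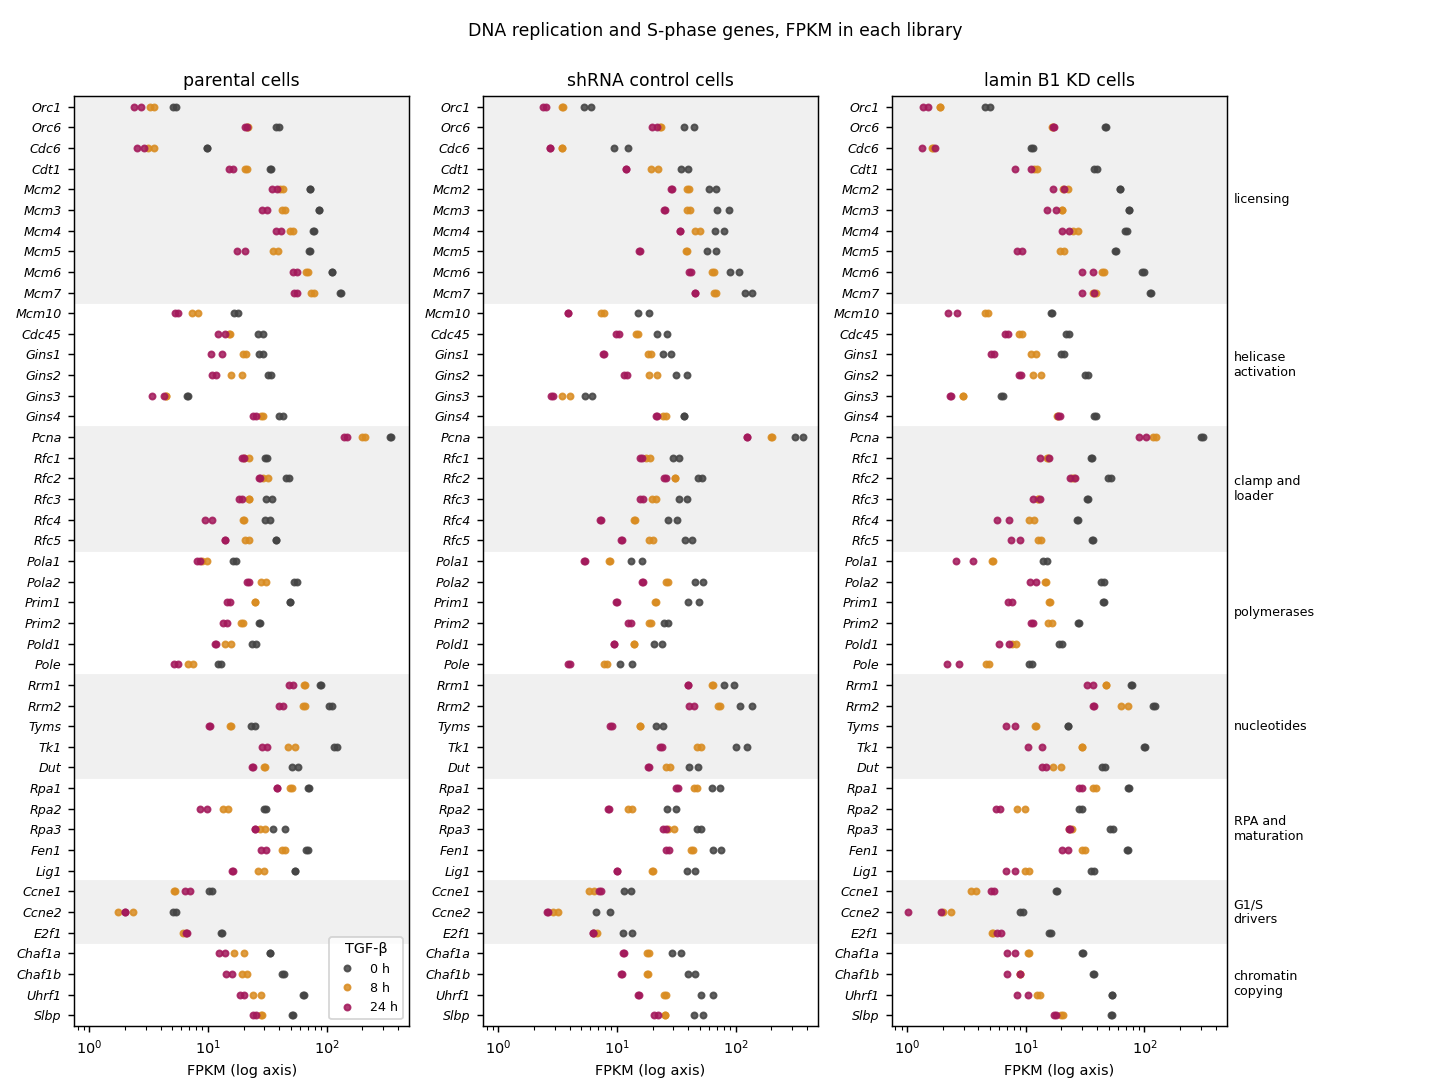
FPKM (log axis) of each of the 45 genes in each library, with 1 point per library (2 per group), coloured by time in TGF-β and set out by role, for parental, control and KD cells. In every panel both untreated points of a gene lie to the right of its 8 and 24 h points, and in KD cells the treated points lie further to the left than in control cells for most genes.

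These genes fell together, and the words that E2F factors are known to bind could be looked for in their promoters. RefSeq promoter windows (GRCm38.p6, 250 bases before to 50 after a start) were found for 37 of the 45 genes. The words TTTCCCGC, TTTGGCGC, TTTCGCGC and TTTGCCGC were searched on both strands, and 2 words may overlap because the reverse complement of one can share its GCGC with the next. At least 1 word stood in the window of 13 of the 37 genes (35.1%), while 2.61% of all 27025 genes with windows and 4.94% of the 8446 tested genes with windows held one. With TTTCCCGC and TTTGGCGC alone the count was 10 of 37 (27.0%, with 1.80% over all genes and 3.68% over the tested ones). The 13 genes were Orc1, Cdc6, Cdt1, Mcm3, Mcm5, Mcm6, Mcm7, Gins3, Rfc3, Pola1, Pold1, Lig1 and Uhrf1. The box CCAAT stood in 23 of the 37 windows (62.2%, with 41.1% over all genes and 43.7% over the tested ones), and the words TTTGAA or TTCGAA, which are known from promoters of mitotic genes, in 6 (16.2%, with 21.7% over all genes and 16.0% over the tested ones). Stretches of 30 bases that lie wholly before the start are printed for 8 genes to show what such a word looks like in place, on the strand of the gene, with the words in capitals.
Orc1: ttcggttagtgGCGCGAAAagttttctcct
Cdc6: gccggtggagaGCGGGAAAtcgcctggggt
Mcm5: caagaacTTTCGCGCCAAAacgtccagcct
Mcm6: gtatgctTTTGGCGCGAAAagtgcgtgcgg
Mcm7: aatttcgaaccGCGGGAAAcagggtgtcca
Gins3: gcgagtgcggcGCGGGAAAgcgagtttgaa
Pola1: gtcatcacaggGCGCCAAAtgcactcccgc
Uhrf1: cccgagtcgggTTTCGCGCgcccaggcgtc
They lie at chr4:108579416-108579445, chr11:98908002-98908031, chr8:75109349-75109378, chr1:128359793-128359822, chr5:138172030-138172059, chr8:95633507-95633536, chrX:93632275-93632304 and chr17:56304117-56304146 (GRCm38.p6), on the plus strand except for Mcm6, Mcm7 and Pola1. In Mcm5 and Mcm6 a pair of words overlaps in 1 run of 12 bases, and the last word of the run begins 149 bases before the Mcm5 start and 106 bases before that of Mcm6. A match of letters is a description and does not show that a factor was bound. The 13 genes with a word had a median difference of -1.06 at 24 h in parental cells, and the 24 genes whose windows held none had -1.17. In control cells at 24 h the medians lay the other way round, with -1.47 and -1.31, as they did between KD (lamin B1 knockdown) and control cells, with -0.73 and -0.46 at 8 h and -0.47 and -0.36 at 24 h. These medians were not tested against each other.

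Licensing factors fell throughout the set of 10. All 10 were called lower at 8 h and at 24 h, with medians of -0.79 and -1.04. The widest fall at 24 h was that of Mcm5, a subunit of the MCM ring (chr8:77633427-77652338, mm9), which was at 72.3 and 71.4 FPKM untreated, 35.4 and 38.7 at 8 h, and 20.6 and 17.7 at 24 h (-1.86 ± 0.075 SE, adjusted p = 1.87e-06). Its 24 h mean was 26.7% of the untreated mean, and no libraries of the 3 times overlapped. Mcm2, which sits in the same ring, was at 73.2 and 73.00 FPKM untreated, 40.4 and 42.6 at 8 h, and 38.1 and 34.8 at 24 h (-0.98 ± 0.053 SE, adjusted p = 5.37e-06). Mcm2 thus fell mostly by 8 h, and its step from 8 to 24 h was -0.18 ± 0.053 SE, while that of Mcm5 was -0.92 ± 0.075 SE. The FPKM ratio of Mcm5 to Mcm2 was 0.988 and 0.978 untreated, 0.876 and 0.908 at 8 h, and 0.541 and 0.509 at 24 h. Mcm7 was the highest and Mcm5 the lowest of the 6 ring genes in each of the 6 parental libraries, and the highest stood 1.84 and 1.80 times above the lowest in untreated cells and 2.75 and 2.996 times above it at 24 h. Cdc6, the loader that recruits the ring to origins, had the widest fall of all 45 genes at 8 h, from 9.88 and 9.87 to 3.14 and 3.52 FPKM (-1.33 ± 0.074 SE, adjusted p = 3.68e-05), and stood at 2.93 and 2.55 FPKM at 24 h. Orc6, of the origin recognition complex, was not called between 8 and 24 h (39.8 and 37.2 FPKM untreated, 21.99 and 21.3 at 8 h, and 21.5 and 20.7 at 24 h, with -0.04 ± 0.049 SE for that step, adjusted p = 0.573).

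The 6 activators of the helicase were all called lower at both times, with medians of -0.67 and -1.11. Mcm10, which helps to set the helicase moving, fell most at 24 h. It was at 18.03 and 16.6 FPKM untreated, 7.29 and 8.26 at 8 h, and 5.59 and 5.24 at 24 h (-1.51 ± 0.072 SE, adjusted p = 3.44e-06), with no overlap between any of the times. The 4 subunits of GINS, which form 1 complex, differed in how far they fell. Gins2 had a 24 h difference of -1.47 ± 0.10 SE and Gins1 of -1.19 ± 0.10 SE, while Gins4 had -0.73 ± 0.057 SE and Gins3 -0.69 ± 0.087 SE. Gins1 was at 29.2 and 27.1 FPKM untreated, 20.8 and 19.7 at 8 h, and 13.2 and 10.5 at 24 h, so that most of its fall came after 8 h. The libraries of Gins2 were at 34.3 and 31.9 FPKM untreated, 15.6 and 19.4 at 8 h, and 11.7 and 10.9 at 24 h, and its 8 h and 24 h libraries did not overlap.

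Pcna, the sliding clamp, had the highest FPKM of the 45 genes in every library. Its parental values were 352 and 339 FPKM untreated, 198 and 212 at 8 h, and 149.6 and 139 at 24 h, which left 41.8% of the untreated mean at 24 h (-1.25 ± 0.052 SE, adjusted p = 2.11e-06). Of the 5 subunits of the clamp loader, Rfc4 fell most, with 33.7 and 30.5 FPKM untreated, 19.6 and 20.02 at 8 h, and 10.7 and 9.47 at 24 h (-1.58 ± 0.071 SE, adjusted p = 2.79e-06). Rfc5 followed with 37.4 and 37.6 FPKM untreated, 20.6 and 22.1 at 8 h, and 13.8 and 13.8 at 24 h (-1.38 ± 0.046 SE, adjusted p = 9.93e-07). Rfc1, Rfc2 and Rfc3 kept between 57.7 and 64.00% of their untreated means, where Rfc4 kept 31.5%. The ratio of Rfc4 to Rfc2 was 0.699 and 0.668 untreated, 0.670 and 0.623 at 8 h, and 0.388 and 0.351 at 24 h.

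Among the 6 polymerase and primase genes, Prim1, the catalytic subunit of primase, changed most. It was at 49.2 and 48.9 FPKM untreated, 24.9 and 25.1 at 8 h, and 15.4 and 14.6 at 24 h (-1.65 ± 0.042 SE, adjusted p = 5.22e-07), and its partner Prim2 was at 27.4 and 27.1 FPKM untreated, 18.99 and 19.7 at 8 h, and 14.5 and 13.4 at 24 h (-0.92 ± 0.051 SE, adjusted p = 6.08e-06). Untreated cells thus had more Prim1 than Prim2 per length, and at 24 h the 2 were nearly level, with ratios of 1.79 and 1.80 untreated, 1.31 and 1.28 at 8 h, and 1.06 and 1.09 at 24 h. Pola2, the second subunit of polymerase alpha, was at 56.1 and 53.3 FPKM untreated, 27.98 and 31.1 at 8 h, and 21.3 and 22.2 at 24 h (-1.29 ± 0.059 SE). Pola1, its catalytic subunit, was at 16.4 and 17.2 FPKM untreated, 8.97 and 9.93 at 8 h, and 8.52 and 8.17 at 24 h (-0.93 ± 0.061 SE) and was not called between 8 and 24 h (adjusted p = 0.0633). The catalytic subunits of polymerases delta and epsilon, Pold1 and Pole, had 24 h differences of -1.01 ± 0.064 SE and -1.09 ± 0.068 SE.

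The 5 genes that make deoxynucleotides fell at both times (medians -0.73 and -1.15). Tk1, the thymidine kinase of the salvage route, fell more than any other of the 45 genes at 24 h. Its libraries were at 123 and 115 FPKM untreated, 47.4 and 54.4 at 8 h, and 31.3 and 28.5 at 24 h (-1.96 ± 0.076 SE, adjusted p = 1.56e-06), so that 25.04% of the untreated mean was left. Ribonucleotide reductase, which turns ribonucleotides into deoxynucleotides, has a large subunit, Rrm1, and a small one, Rrm2, and the small one fell further. Rrm1 was at 88.9 and 90.4 FPKM untreated, 64.4 and 66.2 at 8 h, and 51.8 and 48.7 at 24 h (-0.82 ± 0.043 SE) and Rrm2 at 111 and 104 FPKM untreated, 65.5 and 63.1 at 8 h, and 42.6 and 39.6 at 24 h (-1.37 ± 0.052 SE). Tyms, which makes thymidylate, and Dut, which clears dUTP, had 24 h differences of -1.15 ± 0.049 SE and -1.15 ± 0.059 SE.

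Of the 5 genes of single-strand binding and strand maturation, Lig1, the ligase that seals the lagging strand, fell most. It was at 54.4 and 54.2 FPKM untreated, 26.5 and 29.5 at 8 h, and 16.2 and 16.1 at 24 h (-1.69 ± 0.054 SE, adjusted p = 8.96e-07). Rpa2, the middle subunit of the single-strand binding protein RPA, was at 30.9 and 29.4 FPKM untreated, 13.5 and 14.9 at 8 h, and 9.84 and 8.61 at 24 h (-1.61 ± 0.075 SE, adjusted p = 3.08e-06). The other 2 RPA subunits fell less, with -0.88 ± 0.037 SE for Rpa1 and -0.66 ± 0.10 SE for Rpa3, and the ratio of Rpa2 to Rpa1 was 0.431 and 0.419 untreated, 0.272 and 0.292 at 8 h, and 0.256 and 0.226 at 24 h. Fen1, the nuclease that trims the fragments, had -1.20 ± 0.059 SE.

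The 3 G1/S drivers were lower at 8 h, and none was called lower again between 8 and 24 h. E2f1, the transcription factor, was at 13.1 and 12.9 FPKM untreated, 6.22 and 6.49 at 8 h, and 6.72 and 6.51 at 24 h (-0.88 ± 0.05 SE, adjusted p = 7.13e-06), and its 24 h libraries lay slightly above those of 8 h, a step that was not called (adjusted p = 0.429). Ccne1, one of the 2 cyclin E genes, was at 10.8 and 10.2 FPKM untreated, 5.28 and 5.23 at 8 h, and 7.15 and 6.43 at 24 h. It was the sole member called higher at 24 h than at 8 h (0.31 ± 0.064 SE, adjusted p = 0.00606), and both 24 h libraries still lay below both untreated ones. Ccne2, the other cyclin E gene, was among the lowest of the set at 5.37 and 5.14 FPKM untreated, 1.75 and 2.32 at 8 h, and 2.02 and 1.998 at 24 h (-1.05 ± 0.094 SE, adjusted p = 5.62e-05). Tk1, Mcm5 and Rfc4 were called lower again between 8 and 24 h. A step that was not called was not particular to the G1/S drivers, as Orc6, Cdc45, Gins3, Rfc1, Pola1 and Rpa3 were not called for it either.

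Among the 4 genes of chromatin copying, Uhrf1, which brings the maintenance DNA methyltransferase to new DNA, fell most. It was at 65.03 and 63.8 FPKM untreated, 23.9 and 27.9 at 8 h, and 20.2 and 18.5 at 24 h (-1.69 ± 0.076 SE, adjusted p = 2.79e-06). Chaf1a and Chaf1b, subunits of the histone chaperone CAF-1, had 24 h differences of -1.28 ± 0.089 SE and -1.45 ± 0.067 SE, and Slbp, which binds the stem loop of histone mRNAs, had -1.02 ± 0.045 SE.

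**Figure D2:**
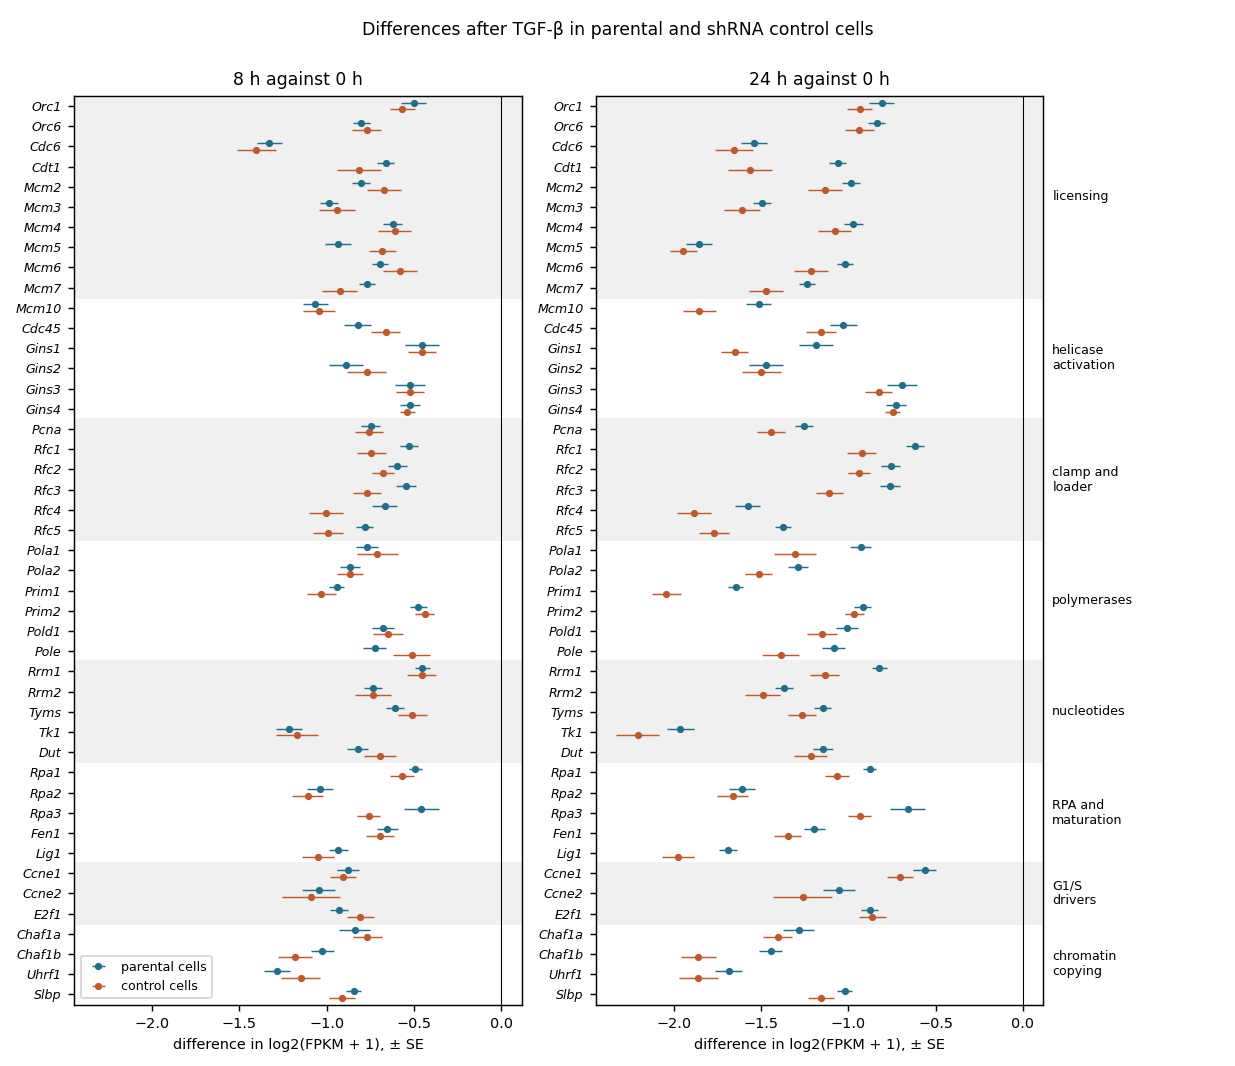
Difference in log2(FPKM + 1) of each gene after 8 h (left) and 24 h (right) of TGF-β against untreated cells, with its SE as bars, in parental cells (teal) and control cells (orange). All points lie left of 0 in both panels, and Tk1 lies furthest left in both kinds of cells at 24 h.

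The control cells, which share no library with the parental ones, were read in the same way. All 45 genes were called lower at 8 h and at 24 h, where 44.9 and 45.1% of all tested genes were called lower. The medians were -0.76 and -1.31, beside -0.14 and -0.13 over all tested genes, and with the libraries centred on their medians they were -0.64 and -1.18. The 2 untreated control libraries were not alike for these genes. The difference of replicate 1 from replicate 2 had a median of -0.23 (log2) over the 45 genes and of 0.02 over all tested genes. Without replicate 1 the control medians were -0.87 at 8 h and -1.45 at 24 h, and without replicate 2 they were -0.64 and -1.17. Over the 45 genes the differences of parental and control cells, which share no library, had Pearson's r = 0.838 and Spearman's rho = 0.795 at 8 h, and r = 0.946 and rho = 0.957 at 24 h. These correlations are across genes that share their libraries and are given as a description.

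Tk1 again had the widest fall at 24 h in control cells. Tk1 was at 101 and 125 FPKM untreated, 47.7 and 50.8 at 8 h, and 23.96 and 22.96 at 24 h (-2.21 ± 0.12 SE, adjusted p = 4.54e-07). Prim1 was at 39.9 and 48.9 FPKM untreated, 21.4 and 20.9 at 8 h, and 9.84 and 10.1 at 24 h (-2.04 ± 0.082 SE, adjusted p = 7.32e-08), and its ratio to Prim2 passed below 1 at 24 h (1.59 and 1.82 untreated, 1.11 and 1.13 at 8 h, and 0.741 and 0.815 at 24 h). Lig1, at 39.2 and 45.96 FPKM untreated, 20.2 and 19.7 at 8 h, and 10.1 and 9.96 at 24 h, had -1.98 ± 0.09 SE. For each of these the treated libraries lay below the untreated ones. Mcm5 was at 57.3 and 68.5 FPKM untreated, 38.6 and 38.7 at 8 h, and 15.7 and 15.3 at 24 h (-1.95 ± 0.078 SE), and most of its fall came after 8 h. Rfc4, at 27.1 and 32.04 FPKM untreated, 14.1 and 14.3 at 8 h, and 7.32 and 7.17 at 24 h, had -1.89 ± 0.10 SE, and Rfc5, at 37.5 and 42.7 FPKM untreated, 18.8 and 20.3 at 8 h, and 11.2 and 10.9 at 24 h, had -1.77 ± 0.086 SE. Uhrf1 was at 51.5 and 64.7 FPKM untreated, 26.2 and 24.8 at 8 h, and 15.4 and 14.95 at 24 h (-1.86 ± 0.11 SE). Mcm10, with 15.03 and 18.5 FPKM untreated, 7.74 and 7.43 at 8 h, and 3.91 and 3.89 at 24 h, had -1.85 ± 0.093 SE. Ccne1 was at 11.6 and 13.3 FPKM untreated, 5.85 and 6.46 at 8 h, and 7.42 and 7.03 at 24 h (-0.70 ± 0.075 SE), with both 24 h libraries above both 8 h libraries, as in parental cells. E2f1 was at 11.2 and 13.4 FPKM untreated, 6.37 and 6.76 at 8 h, and 6.27 and 6.29 at 24 h (-0.86 ± 0.077 SE), and Ccne2 at 6.64 and 8.75 FPKM untreated, 2.91 and 3.20 at 8 h, and 2.63 and 2.58 at 24 h (-1.26 ± 0.17 SE).

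**Figure D3:**
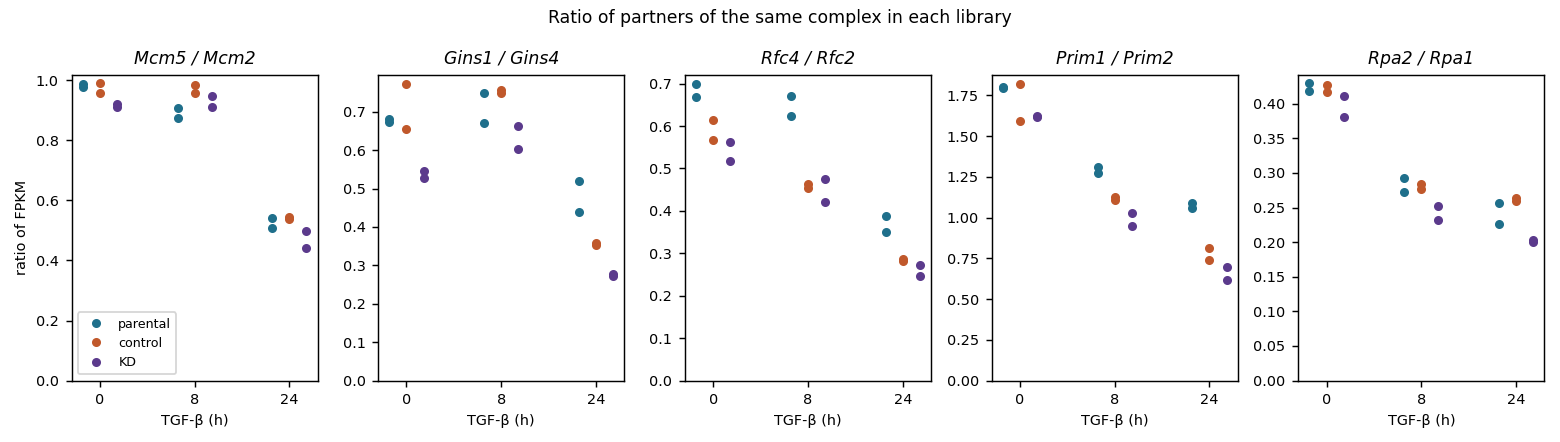
FPKM ratio of 2 partners of the same complex in each library, against the time in TGF-β, for parental (teal), control (orange) and KD cells (purple), with 1 point per library. The pairs were chosen after their values were seen, and in each of the 5 panels (pairs) every 24 h point lies below the untreated points of the same cells.

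KD cells were compared with control cells to ask how lamin B1 depletion bears on these genes. In untreated cells 2 genes were called higher in KD cells, 1 was called lower and 42 were not called, where 10.6% of all tested genes were called higher and 9.09% lower, and the median over the 45 genes was -0.02. The 2 higher genes were G1/S drivers. Ccne1 was at 18.2 and 18.1 FPKM in untreated KD cells and at 11.6 and 13.3 in control cells (0.51 ± 0.075 SE, adjusted p = 0.00276), and E2f1 at 15.6 and 16.3 against 11.2 and 13.4 (0.36 ± 0.077 SE, adjusted p = 0.0148). Gins1, the gene called lower, was at 19.8 and 21.2 FPKM in KD cells and 24.3 and 28.4 in control cells (-0.34 ± 0.078 SE, adjusted p = 0.018). Without replicate 1 of the untreated control cells, 2 genes were called higher and 8 lower (median -0.16). Without replicate 2 of them 4 were called higher and none lower (median 0.074). Without either untreated KD library 1 gene was called, and a fit of these 2 groups alone called 1.

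At 8 h of TGF-β, 43 of the 45 genes were called lower in KD than in control cells and none higher, where 16.5% of all tested genes were called lower. The median was -0.62 (from -0.96 for Mcm3 to -0.08 for Rrm2), beside 0.01 over all tested genes. No called difference reached 2-fold on the log2(FPKM + 1) scale, while by the ratio of mean FPKM alone Cdc6 was 47.3% and Chaf1b 49.4% of the control level. Leaving out 1 library at a time left between 35 and 38 genes called. Ccne2 and Rrm2 were the 2 genes not called, with -0.35 ± 0.17 SE and -0.08 ± 0.10 SE.

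All 10 licensing factors were called lower in KD cells at 8 h, with a median of -0.79. Values of KD libraries are given first, against those of the control libraries. Mcm3 was at 20.3 and 20.3 FPKM in KD cells and 41.5 and 39.4 in control cells (-0.96 ± 0.10 SE, adjusted p = 0.000313), which is 50.1% of the control mean. Mcm5 was at 19.6 and 20.8 against 38.6 and 38.7 FPKM (-0.90 ± 0.078 SE), and Mcm2 at 20.6 and 22.9 against 40.3 and 39.4 (-0.85 ± 0.10 SE). For each of these 3 genes both KD libraries lay below both control libraries at 8 h, while the groups overlapped in untreated cells, for example for Mcm3 (74.6 and 74.5 against 70.3 and 88.04) and Mcm2 (62.1 and 62.7 against 59.7 and 69.05). Uhrf1 was at 12.4 and 13.1 FPKM in KD cells and 26.2 and 24.8 in control cells (-0.95 ± 0.11 SE, adjusted p = 0.000476). Lig1 was at 9.90 and 10.8 against 20.2 and 19.7 (-0.89 ± 0.09 SE), Pola2 at 14.5 and 14.8 against 25.9 and 26.8 (-0.81 ± 0.075 SE), and Pcna at 119 and 125 against 199.9 and 202 (-0.72 ± 0.08 SE). For Tk1 the libraries were 29.8 and 29.8 against 47.7 and 50.8 (-0.71 ± 0.12 SE), and for Gins2 11.6 and 13.6 against 18.9 and 21.8 (-0.65 ± 0.11 SE). Ccne1, which had been higher in untreated KD cells, was lower at 8 h, with 3.46 and 3.80 against 5.85 and 6.46 FPKM (-0.63 ± 0.075 SE, adjusted p = 0.000505), and E2f1 likewise, with 5.32 and 5.24 against 6.37 and 6.76 (-0.27 ± 0.077 SE, adjusted p = 0.0258). The smallest differences among the 43 were those of Prim2 (-0.23), Rfc1 (-0.25), Rpa3 (-0.25) and Gins3 (-0.26). Both KD libraries lay below both control libraries for 44 of the 45 genes, Rrm2 being the exception, and for 37.2% of all tested genes.

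**Figure D4:**
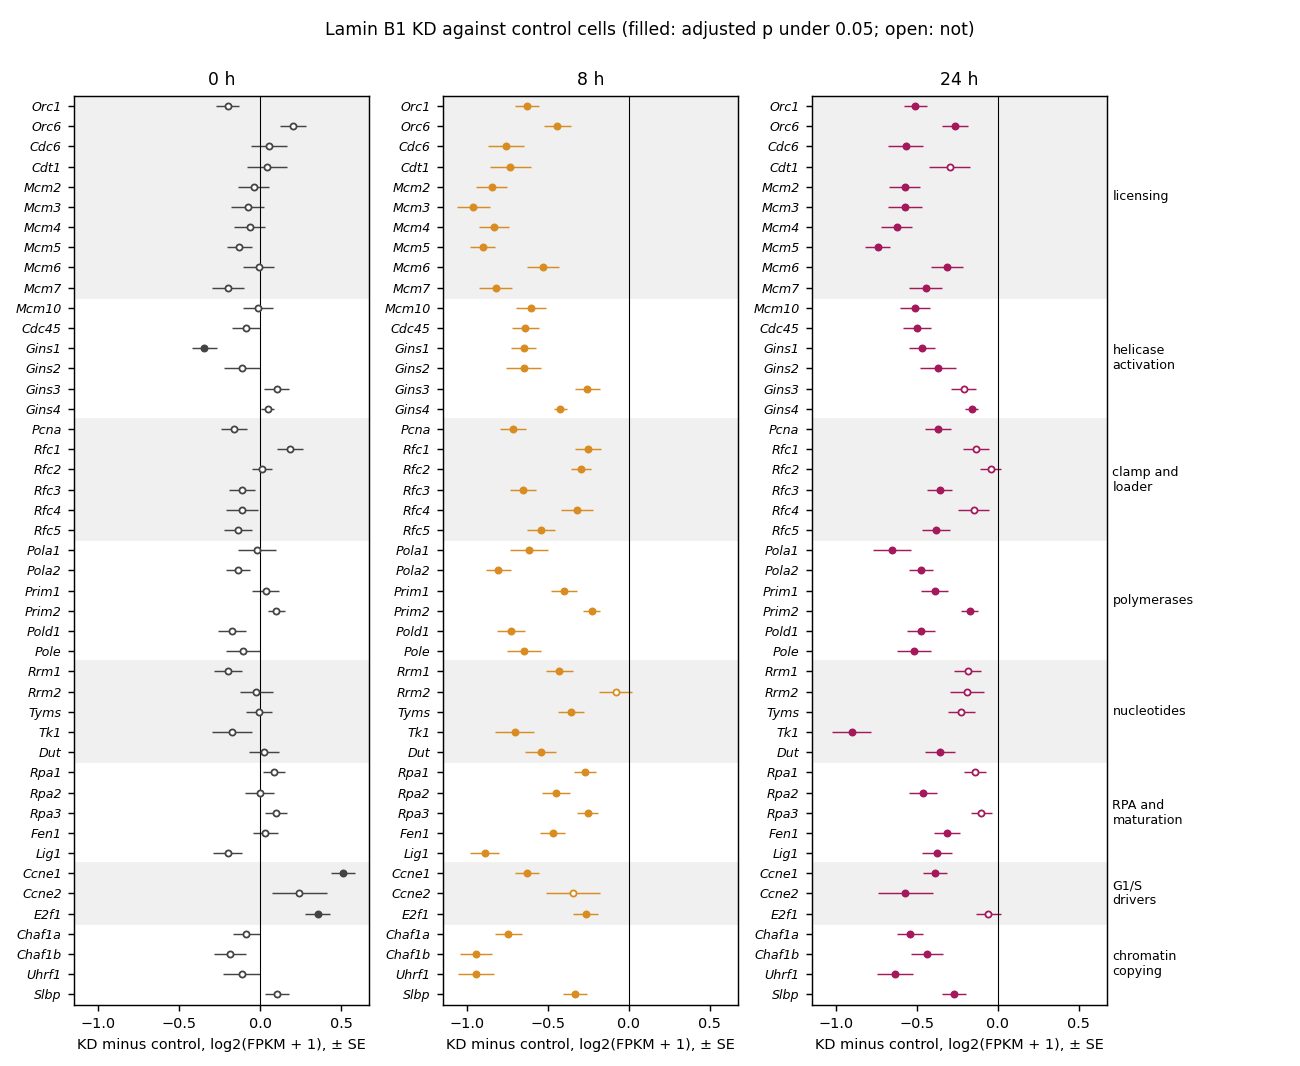
Difference between KD and control cells in log2(FPKM + 1) for each gene at 0, 8 and 24 h of TGF-β, with its SE as bars and filled points for an adjusted p under 0.05. The points lie around 0 in untreated cells and left of 0 for all 45 genes at 8 and 24 h.

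At 24 h, 34 of the 45 genes were called lower in KD than in control cells and none higher, where 11.5% of all tested genes were called lower, and the median was -0.38. All 45 differences lay below 0. A fit of these 2 groups alone called 6, and 15 or 19 were called without replicate 1 or 2 of the 24 h control cells. Tk1 had the widest difference, with 10.5 and 13.8 FPKM in KD cells and 23.96 and 22.96 in control cells (-0.90 ± 0.12 SE, adjusted p = 0.00135). Mcm5 was at 8.48 and 9.29 against 15.7 and 15.3 FPKM (-0.74 ± 0.078 SE, adjusted p = 0.000499). The libraries of neither gene overlapped. Pola1 was at 3.57 and 2.60 against 5.40 and 5.35 (-0.65 ± 0.12 SE), Uhrf1 at 8.42 and 10.5 against 15.4 and 14.95 (-0.64 ± 0.11 SE), and Mcm2 at 17.04 and 21.02 against 28.9 and 28.5 (-0.58 ± 0.10 SE). Mcm10 was at 2.23 and 2.65 against 3.91 and 3.89 (-0.51 ± 0.093 SE), and Rpa2 at 5.66 and 6.08 against 8.55 and 8.36 (-0.46 ± 0.089 SE). Rfc5 stood at 7.47 and 9.01 against 11.2 and 10.9 (-0.38 ± 0.086 SE), and Pcna at 89.8 and 103 against 126 and 124 (-0.37 ± 0.08 SE). Ccne2 was at 1.93 and 1.01 in KD cells, a wide spread at this low level, and 2.63 and 2.58 in control cells (-0.57 ± 0.17 SE, adjusted p = 0.0351). E2f1 had -0.06 ± 0.077 SE and was not called (adjusted p = 0.594). The 11 genes not called were Cdt1, Gins3, Rfc1, Rfc2, Rfc4, Rrm1, Rrm2, Tyms, Rpa1, Rpa3 and E2f1. The difference of replicate 1 from replicate 2 of the KD cells at 24 h had a median of -0.15 (log2) over the 45 genes and of -0.02 over all tested genes.

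Within KD cells all 45 genes were called lower at 8 h and at 24 h against untreated KD cells, with 44.8 and 43.3% of all tested genes called lower. The medians were -1.31 and -1.67. Cdc6 fell from 11.01 and 11.6 to 1.63 and 1.65 FPKM at 8 h (-2.22 ± 0.11 SE), and Tk1 from 100.1 and 98.3 to 10.5 and 13.8 at 24 h (-2.94 ± 0.12 SE), which left 12.3% of the untreated mean. Prim1 was at 45.2 and 45.4 FPKM untreated, 15.6 and 15.9 at 8 h, and 7.06 and 7.69 at 24 h, Mcm10 at 16.8 and 16.3 FPKM untreated, 4.53 and 4.78 at 8 h, and 2.23 and 2.65 at 24 h, and Rfc4 at 26.9 and 27.5 FPKM untreated, 10.7 and 11.7 at 8 h, and 5.78 and 7.16 at 24 h.

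The difference between the KD and control responses was tested directly. At 8 h the response of KD cells was called lower than that of control cells for 22 of the 45 genes, where 1.61% of all tested genes were called lower, and the median difference in response was -0.54. All 45 values lay below 0, and 42 had an unadjusted p under 0.05, as did 9.56% of all tested genes in the same direction. The count rests on few libraries. It was 42 without replicate 2 of the untreated control cells and 12 without replicate 1, between 1 and 3 when any 1 of the other 6 libraries was left out, and 12 with no filter on low values. Ccne1 had the widest value, -1.14 ± 0.11 SE (adjusted p = 0.00267), followed by Mcm3 with -0.88 ± 0.15 SE (adjusted p = 0.0219) and Uhrf1 with -0.83 ± 0.16 SE (adjusted p = 0.0315). For Ccne1 the difference of KD from control cells was 0.51 in untreated cells and -0.63 at 8 h. Rrm2 had -0.06 ± 0.15 SE (adjusted p = 0.868). At 24 h 3 genes were called, where the background was 1.98%, and the median was -0.34. They were Ccne1 (-0.90 ± 0.11 SE, adjusted p = 0.00452), Tk1 (-0.73 ± 0.17 SE, adjusted p = 0.0492) and Mcm5 (-0.61 ± 0.11 SE, adjusted p = 0.0234). Leaving out replicate 2 of the untreated control cells gave 25 calls at 24 h, leaving out KD replicate 1 or 2 of 24 h gave 13 or 12, leaving out either untreated KD or either 24 h control library gave 1, and the 2-fold minimum left 0 at 24 h and 1 at 8 h.

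Other genes of the same processes were counted from lists written with earlier results of these data known. Of 30 further replication genes, 26 were called lower in parental cells at 24 h and none higher (median -0.84), beside 37.1% of all tested genes called lower and 33.4% called higher, with -1.73 for Dscc1, a part of the alternative clamp loader, -1.46 for Recql4, a helicase, and -1.36 for Gmnn, which blocks relicensing. Of 14 further nucleotide genes 13 fell and none rose (median -0.51), among them Shmt1 (-2.04), an enzyme of folate metabolism. Of 11 further chromatin genes 10 fell (median -0.50), among them the histone chaperone Asf1b (-1.76) and the remodeller Hells (-1.38). KD against control cells at 8 h gave 24 lower and 1 higher of the 30, 10 lower of the 14 and 9 lower of the 11, beside 16.5% of all tested genes called lower and 19.3% called higher. The difference was -0.77 for Timeless, a fork protection factor, -0.94 for Shmt1 and -0.81 for Hells.

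Of 28 tested genes of G1/S control, 18 were called lower and 5 higher in parental cells at 24 h, beside 37.1% and 33.4% of all tested genes. E2f2 and E2f8 fell (-2.08 and -1.91), while E2f3, E2f4 and E2f5, named after their values were seen, were not called (-0.01, 0.04 and 0.00). Cdkn2b, the CDK4 and CDK6 inhibitor p15, rose by 0.73 at 8 h and 1.20 at 24 h, with 27.7 and 28.5 FPKM untreated, 46.97 and 47.5 at 8 h, and 64.4 and 66.98 at 24 h. Cdkn1a, the inhibitor p21, was lower at 24 h (-0.49), as were Ccnd1, cyclin D1 (-1.07), and the phosphatase gene Cdc25a (-0.43). Myc was not called at 24 h (-0.09), and Cdkn1c did not pass the filter. In KD against control cells at 8 h Cdkn2b was not called (-0.03), Cdkn1a was higher (0.37) and Myc lower (-0.39).

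Genes of G2 and mitosis were read beside them. Of 20 such genes, 12 were called lower in parental cells at 8 h (median -0.23, against -0.77 for the 45 genes) and all 20 at 24 h (median -1.39, against -1.09), beside 32.1 and 37.1% of all tested genes. Between KD and control cells 13 of the 20 were called lower at 8 h (median -0.33, against -0.62) and all 20 at 24 h (median -0.71, against -0.38), beside 16.5 and 11.5% of all tested genes. In untreated cells 6 of the 20 were already called lower in KD cells and none higher (median -0.12, against -0.02). Of all tested genes 9.09% were called lower there. Whether the lists differ was not tested.

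Peaks of lamin B1 and of accessible chromatin (ATAC) were read within 500 bp of any annotated start site of a gene on mm9, with 1 library per time. Some of these starts lie inside the gene. Pold1, on the minus strand at chr7:51788116-51804219, was counted at 8 h for a lamin B1 peak at chr7:51789446-51790622, far from its 5′ end. A lamin B1 peak stood at a start of 11 of the 45 genes in untreated cells (24.4%, 95% Wilson interval 14.2 to 38.7%), of 15 at 8 h (33.3%, 21.4 to 47.9%) and of 17 at 24 h (37.8%, 25.1 to 52.4%). Of the 10703 tested genes placed on mm9, 29.9, 51.0 and 41.0% had one at the same times. The intervals cover counting error only. The genes were picked by name and each time has 1 library, so whether the shares differ was not tested. With the 3 lists cut to equal length the counts were 11, 5 and 7 (24.4, 11.1 and 15.6%), beside 29.9, 29.7 and 30.7% of all tested genes. The intervals were then 4.84 to 23.5% at 8 h and 7.75 to 28.8% at 24 h. Gins1, Pola2, Rpa1, Ccne1 and Ccne2 had a peak at all 3 times, and 22 genes had one at none, among them Mcm2, Mcm3, Mcm5, Mcm7, Pcna, Tk1 and Lig1. The shares of all tested genes with a peak at all times or at none were not counted, so these counts have no background. The Ccne1 peak lay at chr7:38891438-38892609 in untreated cells (score 73.7), chr7:38891675-38893388 at 8 h (score 174) and chr7:38891632-38892843 at 24 h (score 79.9), over the 5′ end of the gene. The E2f1 start had no peak in untreated cells and had one at 8 h (chr2:154394782-154395965, score 96.5) and at 24 h (chr2:154394689-154395548, score 69.6). The 23 genes with a peak at any time had a median difference of -1.02 at 24 h in parental cells and of -0.47 between KD and control cells at 8 h, and the 22 genes with none had -1.24 and -0.63.

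ATAC peaks stood at a start of 37 of the 45 genes in untreated cells (82.2%, 68.7 to 90.7%), of 29 at 8 h (64.4%, 49.8 to 76.8%) and of 44 at 24 h (97.8%, 88.4 to 99.6%). Of all tested genes on mm9 60.0, 49.3 and 88.5% had one, so that both shares were lowest at 8 h. The list of 24 h held 33811 peaks, where those of 0 and 8 h held 9782 and 10340. Cut to the length of the shortest list, the 24 h list left 30 of the 45 (66.7%, with 54.9% of all tested genes). The 8 h list cut in the same way left 28 (62.2%, with 47.6% of all tested genes). At 24 h the sole gene without an ATAC peak at a start was Prim1. Mcm2, Rfc4, Prim2, Rrm2 and Tyms had an ATAC peak at 24 h, where the list was longest, and at neither earlier time. The share of all tested genes with this pattern was not counted.

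**Figure D5:**
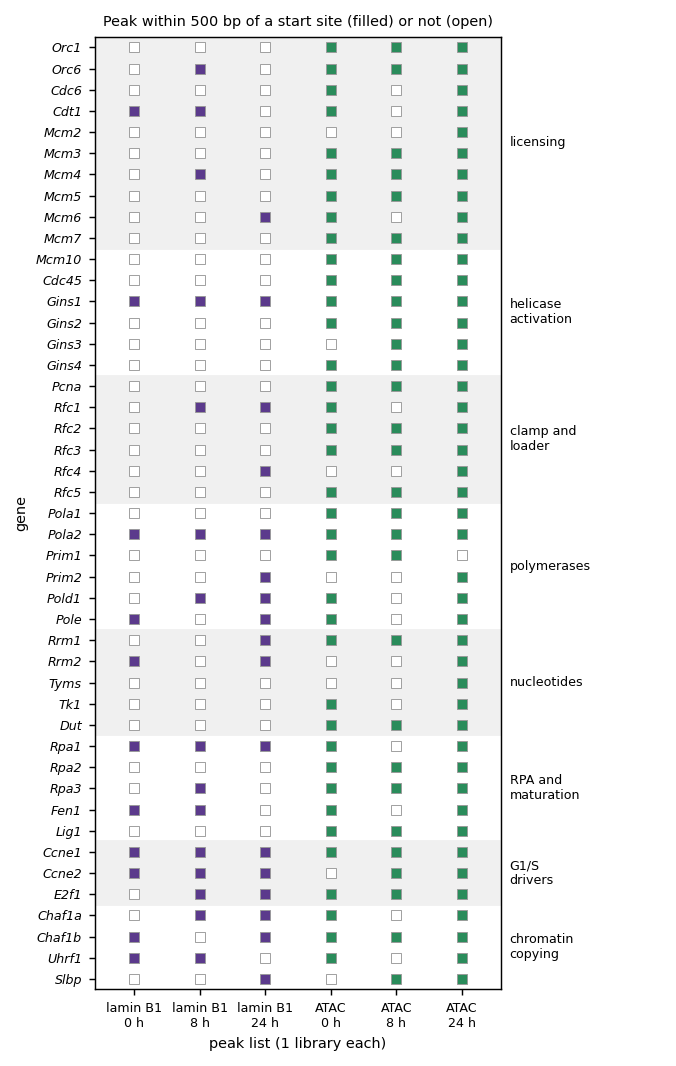
Presence of a lamin B1 peak (purple) or ATAC peak (green) within 500 bp of a start site of each of the 45 genes at 0, 8 and 24 h, with open squares for no peak and 1 library per column. All 3 G1/S drivers have lamin B1 peaks at 8 and 24 h, and 11 of the 16 genes of licensing and helicase activation have none at any time. The shares of all tested genes with these patterns were not counted, and whether the roles differ was not tested.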

How the data were processed

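The authors deposited FPKM values per gene, made from reads with Bowtie, TopHat and Cufflinks on mm9 per the submitters' processing notes (versions not given in the sources used here). They also deposited lists of MACS peaks on mm9 with a score per peak, for lamin B1 ChIP-seq (parallel ChIPs mixed) and ATAC-seq. Read totals are unknown, so depth gives no interval for a level.

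Genes that reached 1 FPKM in 2 or more libraries of their table were fitted on log2(FPKM + 1) with limma 3.58.1 (trend, R 4.3.3), with 1 fit per table over all its groups and Benjamini-Hochberg adjustment over all tested genes. The 2 tables were normalized separately and are tested only within themselves. The procedure was tested on simulated data. Counts, ratios and peak overlaps were made in Python 3.11.15 (pandas 2.3.3, numpy 2.4.6), and figures with matplotlib 3.10.9. Promoter and start positions came from RefSeq (GRCm38.p6) and GENCODE M1 (mm9) and were not mixed.

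The members and lists were chosen with earlier results of these data known. Library values were given for the member of each role group with the largest called difference. The comparisons were parental and control cells at 24 h, and KD against control cells at 8 and 24 h. E2f1, Ccne1, Ccne2, Pcna, Mcm2 and Lmnb1 were added by name. For some of these genes, such as Pcna and Rpa2 in shRNA cells, not every group was printed. Other members were named after their values were seen. The study's methods give 2 biological replicates. Replicate numbers are given for shRNA libraries only, and over 15 pairs of groups the correlation of same-numbered libraries' deviations ran from -0.14 to 0.37 (2 above 0.1), so the numbers were not taken as pairs. The alternatives tried were another added constant, no filter, quantile normalization, median centring, a replicate block, fits of the groups compared alone, a 2-fold minimum, each library left out, and other peak windows, score limits and list lengths.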

Additional observations from a re-analysis of the deposited data

Results flagged for a closer look

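For 22 of the 45 genes the response to TGF-β at 8 h differed between KD and control cells by the test of the difference itself (limma, adjusted p under 0.05, 2 libraries per group), where 1.61% of all tested genes were called lower. The KD response minus the control response, in log2(FPKM + 1), was -1.14 for Ccne1, -0.88 for Mcm3, -0.83 for Uhrf1, -0.81 for Cdc6, -0.81 for Mcm2, -0.78 for Mcm5, -0.77 for Cdt1, -0.77 for Mcm4, -0.76 for Chaf1b, -0.69 for Lig1 and -0.67 for Pola2. For the others it was -0.66 for Chaf1a, -0.65 for Orc6, -0.63 for Mcm7, -0.62 for E2f1, -0.59 for Mcm10, -0.56 for Pcna, -0.55 for Pold1, -0.55 for Cdc45, -0.54 for Rfc3, -0.50 for Fen1 and -0.47 for Gins4. At 24 h it was -0.90 for Ccne1, -0.73 for Tk1 and -0.61 for Mcm5. Of the 22 genes 8 were licensing factors, 5 of them genes of the MCM ring. All of these values include the 2 untreated control libraries, whose difference (replicate 1 minus replicate 2) had a median of -0.23 over the 45 genes. Those of Ccne1 and E2f1 also take in higher levels in untreated KD cells than in untreated control cells (0.51 and 0.36). Without replicate 2 of them 42 genes were called at 8 h and without replicate 1 of them 12, and leaving out any 1 of the other 6 libraries left 1 to 3.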

How the results depend on the processing

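Of 6165 values of single genes under the alternatives, 5509 kept their side of the threshold, 553 lost their call and 103 gained one. None (0) changed direction while called, and changes of direction among values not called were not counted. Of 269 counts and medians 207 stayed, 61 moved and 1 turned. Here a count stayed within a set ratio of the main one, and a median within the spread between replicates, so those that stayed could still differ. Examples are 22 and 16 calls for the 8 h difference in response (main fit and median centring). Another is the median between KD and control at 0 h, -0.02 and, without replicate 2 of the untreated control cells, 0.074.

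With 0.1 added in place of 1, the medians were -0.81 (parental, 8 h), -1.21 (parental, 24 h) and -1.44 (control, 24 h), and the 24 h difference in response gave 5 calls. Median centring gave -0.71 (parental, 8 h), -0.43 (parental, 24 against 8 h), -0.64 and -1.18 (control, 8 and 24 h) and -1.21 (KD, 8 h), and quantile normalization gave -1.17 (control, 24 h) and 8 calls for the 24 h difference in response. With no filter the 8 h difference gave 12 calls. Fits of the groups compared alone gave 1 call between KD and control at 0 h, 6 at 24 h and 1 for the 24 h difference. A 2-fold minimum on the log2(FPKM + 1) scale left 7 and 29 genes in parental cells at 8 and 24 h, 0 between 8 and 24 h, 10 in control cells at 8 h, 0 between KD and control at any time, and 1 and 0 for the differences in response.

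Leaving out 1 library at a time gave, for parental cells, 44 to 45 calls at 8 h (medians -0.80 to -0.74), medians of -1.13 to -1.04 at 24 h, and 30 to 39 calls between 8 and 24 h (medians -0.43 to -0.34). For control cells the medians ran from -0.87 to -0.64 at 8 h and from -1.45 to -1.17 at 24 h, and for KD cells from -1.38 to -1.32 and from -1.76 to -1.58. Between KD and control it gave 1 to 10 calls at 0 h (medians -0.16 to 0.074), 35 to 38 at 8 h and 15 to 31 at 24 h (medians -0.47 to -0.30). The 10 calls, of which most were lower, came without replicate 1 of the untreated control cells. The differences in response gave 1 to 42 calls at 8 h (medians -0.68 to -0.41) and 1 to 25 at 24 h (medians -0.44 to -0.23). The lone library of a group is then assumed to vary like the others.

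With a replicate block the counts were 45 in control and KD cells at both times, 3, 42 and 33 between KD and control at 0, 8 and 24 h, and 20 and 4 for the differences in response. The parental libraries carry no numbers. With peaks at or above the median score, 6, 7 and 3 genes had a lamin B1 peak at a start at 0, 8 and 24 h. These were 13.3, 15.6 and 6.67% of the 45 genes, beside 17.5, 32.4 and 24.4% of all tested genes. With the same limit 17 genes had an ATAC peak at 8 h (37.8%, beside 29.8% of all tested genes). With lists of equal length 5 and 7 genes had a lamin B1 peak at a start at 8 and 24 h. Their shares were 11.1 and 15.6%, beside 29.7 and 30.7% of all tested genes. The cause of these shifts was not tested. Depth is unknown, so no error from read counts is given for the lowest genes (Ccne2, Cdc6, Gins3). Their SE comes from the limma fit over all groups of a table, with 2 libraries per group.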
